A study of Mus musculus with 89 samples.

Results

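The transcripts described here are those of the mouse mitochondrial genome, measured by RNA-seq in embryonic stem cells. Rows of the count table were chosen by symbol, as those whose name begins with mt- and a capital letter. This gave 2 of 26276 named rows, the ribosomal RNAs mt-Rnr1 and mt-Rnr2. The table carries the mitochondrial messenger RNAs under RefSeq symbols without that prefix, so the 13 protein-coding genes that RefSeq (assembly GRCm38.p6) places on the mitochondrial chromosome were added, for 15 rows in all. No named row matched the 22 mitochondrial transfer RNA genes by symbol, so these were not analysed.

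The study followed loss of the histone variant H2A.Z.1 in V6.5 cells, a mouse embryonic stem cell line, with 89 samples over several assays, of which the 6 RNA-seq libraries are used. In both RNA-seq groups the gene H2afz carries an FKBP-V tag, and the medium held LIF with PD0325901 and CHIR99021, inhibitors of MEK and GSK3. The 3 dTAG libraries are from cells given the dTAG molecule, which directs the tagged protein to the proteasome, and the 3 control libraries are the set they are compared with. The sources used here do not give the length of the treatment, what the controls received or whether the line is a single clone. No label ties the replicates to separate cultures, and the spread that p-values are set against may be technical.

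Mitochondria keep a small circular genome that is transcribed by its own polymerase, Polrmt, with the factors Tfam and Tfb2m. Both strands are read as long polycistronic RNAs. These are cut, mostly at the transfer RNAs that punctuate them, into ribosomal RNAs, messenger RNAs and transfer RNAs, and the messenger RNAs encode core subunits of the respiratory chain and of ATP synthase. H2A.Z.1 is part of nuclear chromatin, and the mitochondrial genome carries no histones.

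The 6 libraries were of very unequal depth, and 2 dTAG libraries stood apart. In dTAG libraries the named rows held 12907095, 2131648 and 1812405 counts in replicates 1, 2 and 3, against 14091745 to 15652795 counts in control libraries. Receptor genes of smell and pheromone sensing, taken as genes silent in stem cells, had a count in 23.4%, 71.4% and 97.0% of their 1455 rows in dTAG replicates 1, 2 and 3, against 10.9% to 18.0% in controls. The summed level of 8 pluripotency markers was 2585, 1537 and 470.1 CPM (counts scaled to 1000000 per library) in dTAG replicates 1, 2 and 3, against 2334 to 2459 CPM in controls, where all 8 had counts in every library. Over 6 fibroblast markers the sum was 19.6, 88.2 and 279 CPM in the dTAG libraries, against 18.0 to 30.0 CPM in controls, where 3 of the 6 had a count in every library and the lowest was at 0. Markers of primitive endoderm (5 genes), neuroectoderm (4) and mesoderm (4) summed above every control in all 3 dTAG libraries. The sums were 15.9 to 64.9 CPM in dTAG replicate 1 and 82.6 to 478 CPM in dTAG replicates 2 and 3, against 11.6 to 61.8 CPM over the same lists in controls. The median named row held 36, 25 and 42 counts in dTAG replicates 1, 2 and 3, against 32 to 34 counts in controls. Each result below is therefore given library by library, and the part of these features in the results was not tested.

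Mitochondrial RNA made up about the same part of dTAG replicate 1 as of the controls, a smaller part of dTAG replicate 2 and very little of dTAG replicate 3. The 15 rows took 9.64%, 6.74% and 0.230% of the counts in dTAG replicates 1, 2 and 3, against 9.74% ± 0.296 (SD, n = 3) in controls. The Wilson 95% intervals, which cover counting error only, were 9.63% to 9.66%, 6.71% to 6.77% and 0.223% to 0.237% for the dTAG libraries. Relative to the control mean, the mitochondrial share was 1.01-fold lower in dTAG replicate 1, 1.44-fold lower in dTAG replicate 2 and 42.3-fold lower in dTAG replicate 3. The spread among the dTAG libraries was thus far wider than that among controls. The mean log2 CPM of the sum was 14.6 ± 2.97 in dTAG libraries and 16.6 ± 0.0436 in controls (SD, n = 3 each), a difference of -1.98, with p = 0.3 in an exact two-sided permutation test that cannot go below 0.1 with 3 libraries against 3. The difference shrank to -0.27 without dTAG replicate 3 and was -2.97 without dTAG replicate 1 and -2.71 without dTAG replicate 2. In bulk RNA, fewer cells of a type and less of an RNA per cell cannot be told apart.

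The split between ribosomal and messenger RNA stayed within a narrow band in all 6 libraries. The 13 messenger RNA rows took 28.0%, 26.7% and 28.1% of the mitochondrial counts in dTAG replicates 1, 2 and 3, against 28.5% ± 0.794 (SD, n = 3) in controls. Counting error put dTAG replicate 3, which held 4172 mitochondrial counts, between 26.8% and 29.5% (Wilson 95% interval). The difference between the means was -0.846 percentage points (exact two-sided permutation test, p = 0.4), and dTAG replicate 2 was the library that lay below every control. As parts of the whole library, ribosomal RNA was 42.1-fold and messenger RNA 42.8-fold lower in dTAG replicate 3 than in the control mean.

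**Figure D1:**
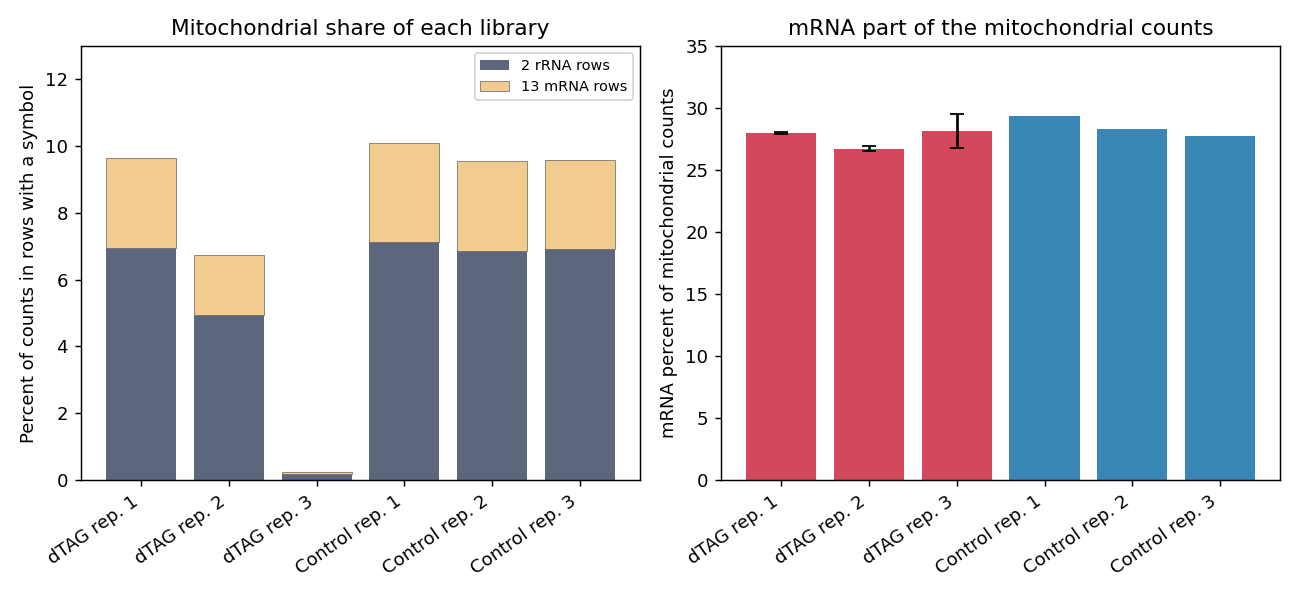
Left, percent of all counts in named rows taken by the 2 ribosomal RNA rows and the 13 messenger RNA rows in each library. Right, messenger RNA as a percent of the mitochondrial counts, with Wilson 95% intervals on the dTAG libraries. The mitochondrial share runs from 0.230% in dTAG replicate 3 to 10.1% in control replicate 1, while the messenger RNA part stays between 26.7% and 29.3%.

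The ribosomal RNAs were the most abundant mitochondrial transcripts. The labels describe removal of ribosomal RNA but name a kit made for messenger RNA, so these levels are what the library method left and not the level in the cell. The gene mt-Rnr1 (chrM:70-1024, mm10 as placed by RefSeq) encodes the RNA of the small subunit of the mitochondrial ribosome. Its level was 32533, 23781 and 788 CPM in dTAG replicates 1, 2 and 3, against 33083, 32502 and 32738 CPM in control replicates 1, 2 and 3. dTAG replicate 1 lay among the controls and the other dTAG libraries lay below them. The gene mt-Rnr2 (chrM:1094-2675) encodes the RNA of the large subunit and stood at 36902, 25615 and 866 CPM in the dTAG libraries, against 38174, 35936 and 36573 CPM in controls. Here too dTAG replicate 1 lay among the controls and the other dTAG libraries lay below them.

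The levels of both ribosomal RNAs moved together. The log2 ratio of mt-Rnr2 to mt-Rnr1 counts was 0.18, 0.11 and 0.14 in dTAG replicates 1, 2 and 3, against 0.21, 0.14 and 0.16 in control replicates 1, 2 and 3. The difference between the group means was -0.03 (exact two-sided permutation test, p = 0.4), which is within the spread of the controls, whose SD was 0.03.

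Complex I of the respiratory chain, which takes electrons from NADH, had rows of very different level. ND5 (chrM:11742-13565) was the most abundant in CPM at 2142, 1531 and 57.4 CPM in dTAG replicates 1, 2 and 3, against 2426, 2004 and 1931 CPM in controls. ND1 followed at 1915, 1266 and 46.9 CPM in dTAG libraries, against 2138, 1883 and 1873 CPM in controls. In both rows dTAG replicate 1 lay among the controls. ND4 had 1508, 1037 and 39.2 CPM in dTAG libraries, against 1697, 1499 and 1443 CPM in controls, and ND2 had 1293, 871 and 33.1 CPM in dTAG libraries, against 1363, 1310 and 1268 CPM in controls. The short gene ND4L (chrM:9877-10173) had 238, 145 and 2.76 CPM in dTAG libraries, against 220.2, 228 and 215 CPM in controls, so dTAG replicate 1 was above every control. Its value in dTAG replicate 3 rests on 5 counts.

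ND3 (chrM:9459-9806), a further complex I subunit, stood at 153, 54.4 and 2.76 CPM in dTAG replicates 1, 2 and 3, against 152, 172 and 156 CPM in controls. dTAG replicate 1 lay at the low end of the controls, and ND3 was the row furthest below them in dTAG replicate 2, at 2.94-fold. ND6 (chrM:13552-14070) is the protein-coding gene read from the strand opposite to the other 12. It had 136, 79.3 and 23.7 CPM in dTAG replicates 1, 2 and 3, against 153, 104 and 126 CPM in controls. It was the row least far below the controls in dTAG replicate 3.

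Complexes III and IV, which pass electrons on to oxygen, were represented by 4 rows. CYTB (chrM:14145-15288), the cytochrome b of complex III, had 2236, 1482 and 50.2 CPM in dTAG libraries, against 2497, 2242 and 2233 CPM in controls. COX1 (chrM:5328-6872), the catalytic subunit of complex IV, was the most abundant messenger RNA row, at 7954, 5490 and 181 CPM in dTAG replicates 1, 2 and 3, against 8788, 7971 and 8110 CPM in controls. Every dTAG library was below every control for COX1, although dTAG replicate 1 missed the lowest control by little. COX2 had 1753, 974 and 40.3 CPM in dTAG libraries, against 1898, 1762 and 1699 CPM in controls. COX3 had 1544, 765 and 29.2 CPM in dTAG libraries, against 1511, 1521 and 1436 CPM in controls. dTAG replicate 1 was thus above every control for COX3 and among them for COX2.

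The rows of complex V, the ATP synthase, are the overlapping genes ATP8 and ATP6, which are carried on a single messenger RNA. ATP6 (chrM:7927-8607), the membrane channel subunit, had 5561, 3934 and 131 CPM in dTAG replicates 1, 2 and 3, against 6121, 5767 and 5594 CPM in controls. ATP8 (chrM:7766-7969) had 550.5, 382 and 9.93 CPM in dTAG libraries, against 587, 544 and 536 CPM in controls. As for COX1, every dTAG library was below every control for ATP6, whereas dTAG replicate 1 lay among the controls for ATP8. The genes share 43 bases, and how reads in this overlap were counted is not given. Smaller overlaps join ATP6 with COX3 (1 base), ND4L with ND4 (7 bases) and ND5 with ND6 (14 bases).

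**Figure D2:**
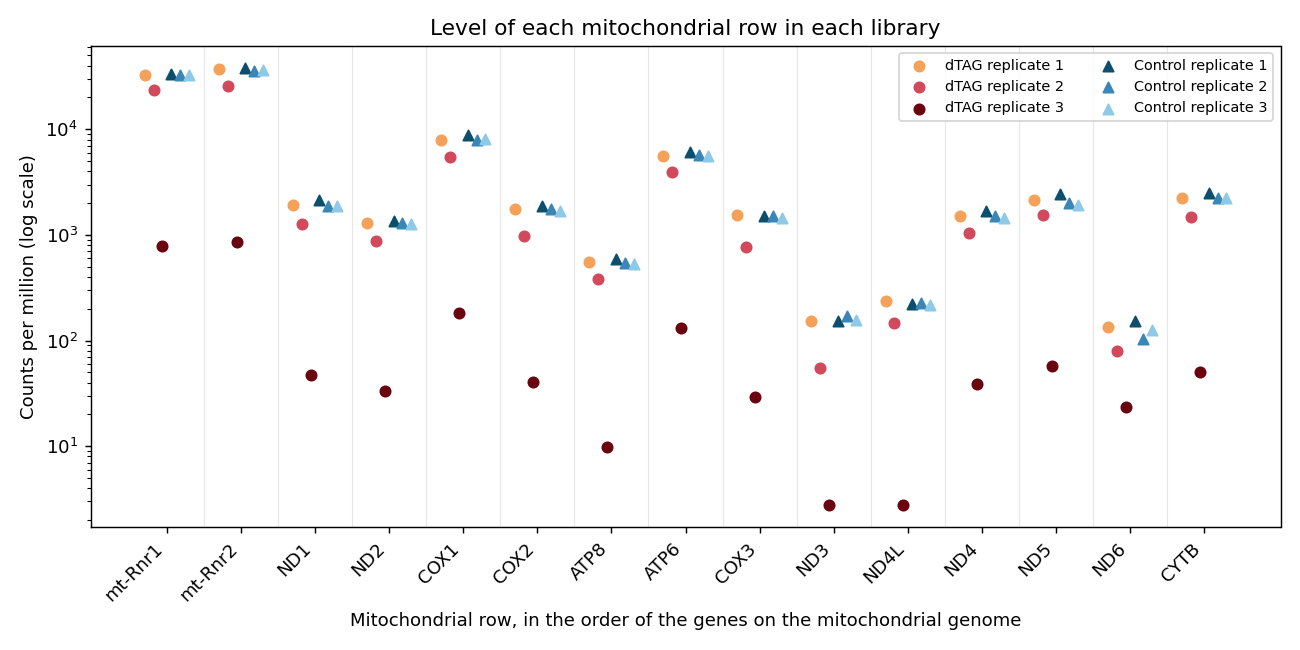
Level of each of the 15 mitochondrial rows in CPM (log axis) in each library, with circles for dTAG and triangles for control libraries. Rows follow the order of the genes on the mitochondrial genome. dTAG replicate 1 sits beside the controls, dTAG replicate 2 below them in all 15 rows, and dTAG replicate 3 furthest below in all 15 rows.

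Across the rows, dTAG replicates 2 and 3 were below every control in 15 of 15 rows, and dTAG replicate 1 was below every control in 2 and above every control in 2. The share of all genes outside the controls in a single dTAG library was not computed. Below the control mean in log2 (CPM + 1) lay 7583, 5352 and 4548 of 18116 tested genes in dTAG replicates 1, 2 and 3. For the mitochondrial rows these counts were 10, 15 and 15 of 15. Every dTAG library was below every control in 2 of 15 rows, COX1 and ATP6, a pattern that 3.22% of all tested genes showed. Apart from ND6, which is read from the opposite strand, the rows are parts of the same long transcripts. All rows come from the same libraries, so they do not give independent evidence of a difference.

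No mitochondrial row was called changed over all 6 libraries. Of the 2 ribosomal and 13 messenger RNA rows, all of which passed the filter on low counts, 0 had an adjusted p under 0.05 (quasi-likelihood test of edgeR, Benjamini-Hochberg adjustment over 18116 genes), and 0 had an unadjusted p under 0.05. Among all tested genes 0% were called by edgeR, while 23.2% had an unadjusted p under 0.05, most of them higher in dTAG libraries, with 0.607% lower. DESeq2, run without the filter of edgeR on low counts, called 0 of the 15 rows, against 22.9% of 22664 genes. Of the genes called, 5180 were higher and 16 lower in dTAG libraries. Without that filter edgeR called 0 of the 15 rows and 5.45% of 25668 genes, each of them higher in dTAG libraries. With limma-voom 0 of the 15 rows and 0% of all genes were called. The log2 fold changes ran from -1.39 for ND3 to -1.01 for ND6, with a median of -1.14 for messenger RNA rows and -1.08 for ribosomal RNA rows, while the median of all tested genes was 0.16. With library totals in place of TMM scaling the medians were -0.84 for messenger RNA, -0.78 for ribosomal RNA and 1.20 for all tested genes. On the scale of weighted log2 values, limma-voom gave a median of -3.01 for messenger RNA rows and -2.90 for ribosomal RNA rows.

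Single rows show how wide the error was. For mt-Rnr1 the edgeR log2 fold change was -1.08 (SE 6.50, adjusted p = 0.908), and DESeq2 gave -1.12 with an SE of 1.11 (adjusted p = 0.432). COX1 had -1.15 by edgeR (SE 3.12, adjusted p = 0.79) and -1.19 by DESeq2 with an SE of 1.12. ND3 had -1.39 by edgeR (SE 1.26, adjusted p = 0.476), the largest change of the 15 rows.

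The call depended on dTAG replicate 1 for a pair of rows. Without that library ND3 had a log2 fold change of -3.42 (adjusted p = 0.0284) and ND6 one of -2.37 (adjusted p = 0.0319, edgeR), so 2 of 13 messenger RNA rows and 0 of 2 ribosomal RNA rows were lower. In that comparison 19.8% of 22093 tested genes were called lower, so the share among mitochondrial rows did not stand above this background. The filter on low counts passed more genes there than the 18116 tested over all 6 libraries. The same comparison called 59.8% of genes in either direction.

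In dTAG replicate 1 set against the 3 controls, mitochondrial rows differed little from the controls. No row was called (edgeR adjusted p of 0.446 or more), with 0.0882% of all genes called in either direction. At an unadjusted p under 0.05, 5 of 15 rows were lower and 0 higher, against 2.51% of all genes lower. These were mt-Rnr1, mt-Rnr2, COX1, ATP6 and CYTB, with log2 fold changes of -0.08 to -0.15 on the TMM scale, where the median of all genes was -0.02. By library totals, ribosomal RNA took 6.94% of dTAG replicate 1, inside the control range of 6.84% to 7.13%, and messenger RNA took 2.69% to 2.71% (Wilson 95% interval), inside the control range of 2.66% to 2.95%. The dTAG arm of this comparison is 1 library, assumed to vary like the controls.

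Per unit of length, the order of the mitochondrial rows was nearly fixed. In controls mt-Rnr1 stood at 34318 ± 306 CPM per kb and mt-Rnr2 at 23321 ± 729 CPM per kb (SD, n = 3). The messenger RNA rows were lower, led by ATP6 at 8557 ± 394 CPM per kb and COX1 at 5365 ± 283 CPM per kb. Next came ATP8 at 2723 ± 134 CPM per kb and COX2 at 2612 ± 149 CPM per kb, whose control ranges overlapped, then ND1 at 2053 ± 157 CPM per kb and CYTB at 2031 ± 131 CPM per kb, which also overlapped. COX3 stood at 1899 ± 59.4 CPM per kb. ND2, ND5 and ND4 followed at 1266 ± 45.7, 1163 ± 147 and 1122 ± 96.7 CPM per kb, each overlapping its neighbour. ND4L at 745 ± 21.9, ND3 at 459 ± 29.3 and ND6 at 246 ± 46.8 CPM per kb closed the order (SD, n = 3 for each). ATP6 and ATP8 stood apart although a single messenger RNA carries both, so this order need not be that of transcript levels.

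The leading 4 rows held the same places per kb in all 3 dTAG libraries. ND6 was last of 15 in the controls and in dTAG replicates 1 and 2, and was 8th in dTAG replicate 3. Nuclear copies of mitochondrial DNA exist in the mouse genome, and the sources do not say how reads matching several places were handled, so the levels of rows with such copies are uncertain.

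Within the mitochondrial counts, most rows kept their share in dTAG libraries, and the exceptions were few. In dTAG replicate 1 the log2 ratio of a row's share to its control mean ran from -0.06 to 0.12, and each control set against the other 2 gave values between -0.38 and 0.33. The range widened to -1.03 to 0.07 in dTAG replicate 2 and to -0.92 to 2.98 in dTAG replicate 3. The median over the 15 rows was -0.01, -0.06 and -0.07 in dTAG replicates 1, 2 and 3. The rows named next were picked after their values were seen, and their shares are given with no test.

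In dTAG replicate 2 the rows whose shares lay furthest below the control mean were ND3, COX3 and COX2. ND3 made up 0.158%, 0.0807% and 0.120% of mitochondrial counts in dTAG replicates 1, 2 and 3, against 0.151% to 0.180% in controls. The Wilson 95% interval was 0.0673% to 0.0968% in dTAG replicate 2 and 0.0512% to 0.280% in dTAG replicate 3, which held 5 counts. The share in dTAG replicate 2 was thus below the controls beyond counting error, and that in dTAG replicate 3 could not be placed at this depth. COX3 made up 1.60%, 1.14% (interval 1.08% to 1.19%) and 1.27% (0.973% to 1.66%) in dTAG replicates 1, 2 and 3, against 1.50% to 1.59% in controls. COX2 made up 1.82%, 1.45% (interval 1.39% to 1.51%) and 1.75% (1.39% to 2.19%) in those libraries, against 1.77% to 1.88% in controls. For both genes the shift lay in dTAG replicate 2, and the interval of dTAG replicate 3 reached into the control range. ND4L had the lowest log2 ratio in dTAG replicate 3, at -0.92, with 0.120% of mitochondrial counts there, against 0.218% to 0.239% in controls, but its interval of 0.0512% to 0.280% spans the controls.

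ND6 differed from the other rows in dTAG replicate 3. It was 5.38-fold lower there than in the control mean, against 37.0-fold lower for ND5, the next least, and 80.2-fold lower for ND4L, the most. ND6 took 0.141%, 0.118% and 1.03% of the mitochondrial counts in dTAG replicates 1, 2 and 3, against 0.109% to 0.151% in controls, with a Wilson 95% interval of 0.766% to 1.39% in dTAG replicate 3. The log2 ratio of ND6 to the other 12 messenger RNA rows was -7.63, -7.82 and -4.72 in dTAG replicates 1, 2 and 3, against -7.59, -8.01 and -7.71 in control replicates 1, 2 and 3. Between group means the difference was 1.05 (exact two-sided permutation test, p = 0.5), and it was 0.05 without dTAG replicate 3. The 43 counts of ND6 in dTAG replicate 3 lay close to the median of 42 counts over all named rows of that library, and 49.5% of rows held as many or more. In the other dTAG libraries and the controls 3.68% to 7.00% did. ATP8 with 18 counts, ND3 with 5 and ND4L with 5 lay below that median. The labels call the libraries stranded, but whether counting used the strand is not given, so reads of ND6 and of the RNA opposite to it could not be told apart. The part of these features in the ND6 values was not tested.

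**Figure D3:**
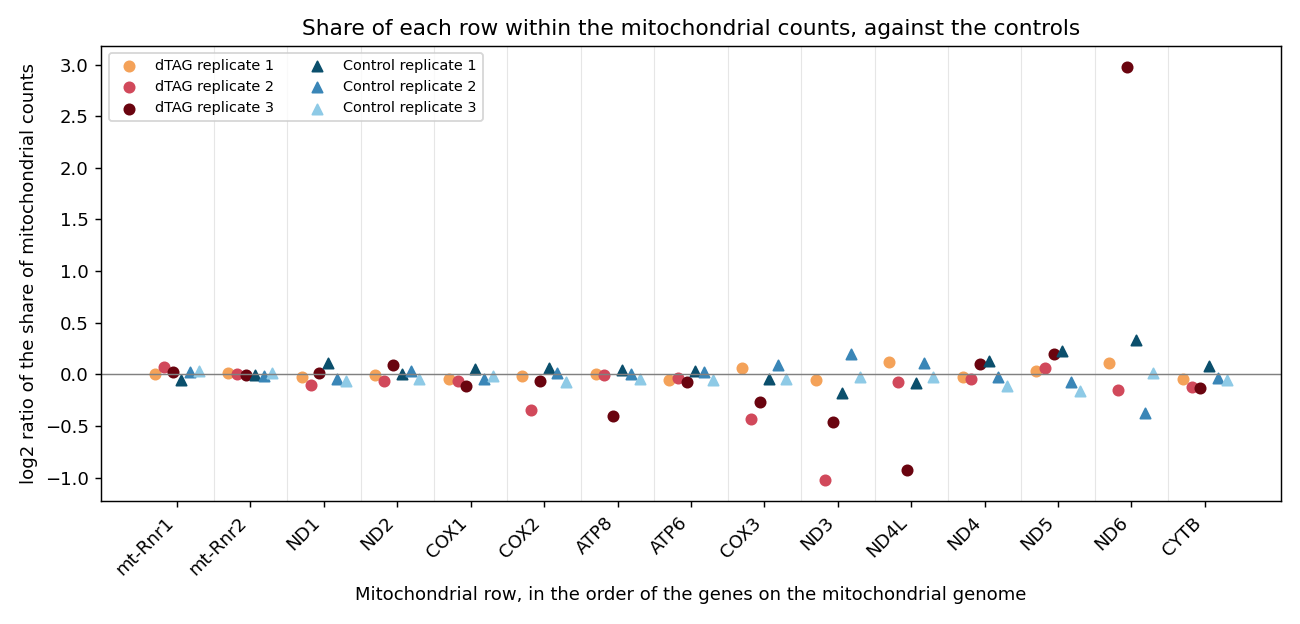
The log2 ratio of each row's share of the mitochondrial counts to the mean share in controls, for each library. Each control is set against the mean of the other 2. Most points lie near 0, while ND3 stands at -1.03 and COX3 at -0.43 in dTAG replicate 2, and ND6 at 2.98, ND4L at -0.92, ND3 at -0.46 and ATP8 at -0.40 in dTAG replicate 3.

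Nuclear genes that serve mitochondrial gene expression, taken as list sums, did not drop as far as the mitochondrial rows in dTAG replicate 3. The 78 genes of mitochondrial ribosomal proteins, partners of mt-Rnr1 and mt-Rnr2, took 0.228%, 0.178% and 0.178% of counts in dTAG replicates 1, 2 and 3, against 0.222% ± 0.0133 (SD, n = 3) in controls. This is 1.24-fold lower in dTAG replicate 3, where the mitochondrial rows were 42.3-fold lower. Single genes of the list varied widely there, with log2 ratios of CPM + 1 to the control mean from -3.44 to 3.28. Their median was -0.45, with 48 of 78 below 0, beside a median of 1.73 for all tested genes. The log2 ratio of mitochondrial to mitochondrial ribosomal protein counts was 5.40, 5.24 and 0.37 in dTAG replicates 1, 2 and 3, against 5.41, 5.49 and 5.47 in control replicates 1, 2 and 3. This ratio was added after the data were seen. The difference of -1.79 had p = 0.1, the smallest the exact two-sided permutation test can give, and was -0.14 without dTAG replicate 3. Of these 78 genes, 0 were called over all 6 libraries by edgeR and 0 by DESeq2. DESeq2 called 22.9% of 22664 genes, 5180 higher and 16 lower in dTAG libraries. At an unadjusted p under 0.05 edgeR had 4 of the 78, against 23.2% of all genes in either direction and 0.607% lower. On the TMM scale, the 4 of the list with the smallest adjusted p had log2 fold changes of -0.97 to -1.58. By CPM, the gene with the smallest adjusted p was above every control in dTAG replicate 3, at 36.4 CPM against at most 33.4 CPM. The others of the 4 were below every control in each dTAG library. The list had a median log2 fold change of -0.75 under TMM and -0.15 by library totals, which is -0.91 and -1.35 relative to the median of all genes. Mrpl15, a large-subunit protein, had 113, 73.7 and 31.4 CPM in dTAG libraries, against 122 ± 17.8 CPM (SD, n = 3) in controls, and Mrpl17, of the same subunit, had 97.9, 62.9 and 50.8 CPM in dTAG libraries, against 97.3 ± 3.01 CPM (SD, n = 3) in controls.

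A list of 50 genes for transcription, replication, processing and stability of mitochondrial RNA and DNA took a part of the library that lay within the control range in dTAG replicates 1 and 2 and above it in dTAG replicate 3. Together they took 0.157%, 0.152% and 0.181% of counts in dTAG replicates 1, 2 and 3, against 0.156% ± 0.00694 (SD, n = 3) in controls, whose highest value was 0.164%. None of the 50 was called over all 6 libraries by edgeR or by DESeq2, and 1 had an unadjusted p under 0.05 in edgeR, beside the same shares of all genes. Their median log2 fold change was -0.50 under TMM and 0.26 by library totals. Relative to the median of all genes it was -0.66 and -0.94, so the list lay below that median under both scalings. In dTAG replicate 3, 19 of the 50 genes lay below their control mean on the scale of log2 (CPM + 1), and the median of the list was 0.41, beside 1.73 for all tested genes. Polrmt, the mitochondrial RNA polymerase, had 28.4, 59.6 and 180 CPM in dTAG replicates 1, 2 and 3, against 22.0 ± 3.45 CPM (SD, n = 3) in controls. Each dTAG library was above the highest control, at 25.2 CPM, and the share of all genes with this pattern was not computed. On the scale of log2 (CPM + 1) Polrmt stood at 0.36, 1.40 and 2.98 against the control mean. The medians of all tested genes were 0.06, 0.69 and 1.73 in the same libraries. Tfb2m, the partner of Polrmt, had 7.52, 18.3 and 18.2 CPM in dTAG libraries, against 14.1 ± 4.41 CPM (SD, n = 3) in controls, and lay inside the control range in dTAG replicates 2 and 3. Tfam, the transcription and packaging factor of mitochondrial DNA, had 54.2, 34.7 and 21.0 CPM in dTAG libraries, against 48.6 ± 2.49 CPM (SD, n = 3) in controls. Lonp1, a mitochondrial matrix protease, had 192, 124 and 83.3 CPM in dTAG libraries, against 182 ± 18.1 CPM in controls (SD, n = 3). Lrpprc, which stabilises mitochondrial messenger RNAs, had 135, 107 and 44.7 CPM in dTAG libraries, against 144 ± 13.1 CPM (SD, n = 3) in controls. Tfam, Lonp1 and Lrpprc were thus lower in dTAG replicate 3 than in controls by far less than the mitochondrial rows, in a library where receptor genes took 0.822% of counts, against 0.00540% ± 0.000600 (SD, n = 3) in controls. Without dTAG replicate 1, 60 of the 78 ribosomal protein genes and 23 of the 50 factors were called lower and 1 of each list higher (edgeR). In that comparison 19.8% of 22093 tested genes were lower and 40% higher. These calls are on the TMM scale, and the same comparison by library totals was not run. By CPM + 1, 48 of the 78 and 19 of the 50 lay below their control mean in dTAG replicate 3, and 56 and 24 in dTAG replicate 2.

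**Figure D4:**
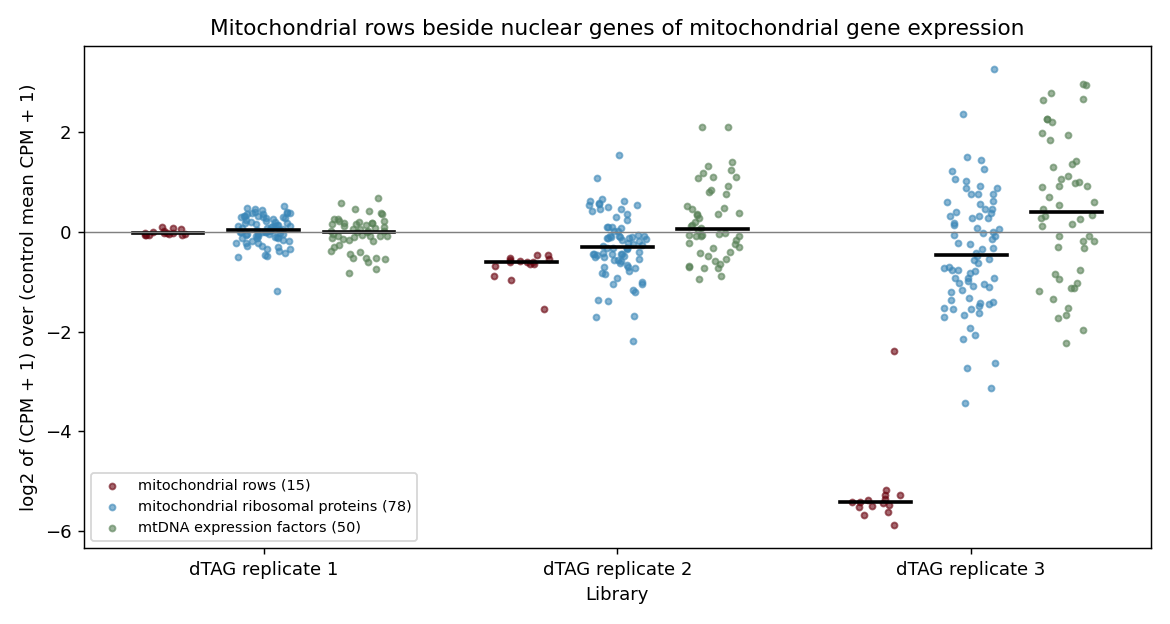
The log2 ratio of CPM + 1 to the control mean for the 15 mitochondrial rows, 78 mitochondrial ribosomal protein genes and 50 genes of mitochondrial gene expression in each dTAG library, with a black bar at each median. In dTAG replicate 3 the medians are -5.42, -0.45 and 0.41, and in dTAG replicate 1 they are -0.02, 0.04 and 0.01.

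Other abundant RNAs gave a scale for these values. The nuclear ribosomal RNA precursor row Rn45s took 12.1%, 13.7% and 0.604% of counts in dTAG replicates 1, 2 and 3, against 14.1% ± 2.43 (SD, n = 3) in controls, so in dTAG replicate 3 it was 23.4-fold lower. In dTAG replicate 2 Rn45s lay inside the control range of 11.4% to 16.2%, whereas the mitochondrial share of 6.74% lay below the control range of 9.54% to 10.1%.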

How the data were processed

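RNA-seq counts of 3 dTAG and 3 control libraries were analysed, grouped by sample titles. A further 83 samples were not used here. The deposited table of 27179 rows holds raw counts as whole numbers. The build mm10 and the tools STAR 2.7.2b, featureCounts, limma and edgeR are named per the submitters' processing notes, without roles or settings. Per the labels' protocols, ERCC RNA was added and libraries were made with a stranded kit for messenger RNA and described as depleted of ribosomal RNA. The 903 rows without a symbol, 2.20% to 14.6% of counts, were left out. CPM are counts per 1000000 counts in named rows, and CPM per kb used RefSeq gene lengths. A count of 0 allows up to 3 counts, or 0.192 to 1.66 CPM. No library was a copy of another (lowest chi-square per gene 8.14 over all pairs).

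All named rows were fitted with edgeR 4.0.16 in R 4.3.3 (glmQLFit, glmQLFTest, two-sided, group alone), with TMM, filterByExpr (minimum count 10, minimum total 15) and Benjamini-Hochberg adjustment, called at an adjusted p under 0.05. TMM factors were 0.774, 1.23 and 2.49 for dTAG replicates 1, 2 and 3 and 0.727 to 0.789 for controls. Standard errors of edgeR were derived from its F statistics. The procedure was also run on simulated data, with a spread set far below the common dispersion of 0.42 fitted over the 6 libraries. That run does not measure the power of the fits given here. Class levels and ratios were compared by exact permutation tests (scipy 1.17.1). The symbol rule covered the ribosomal RNAs only, so tests planned on mt- messenger RNA rows used the 13 RefSeq rows. One factor of the list was found by an older symbol. All mitochondrial rows are named, and of nuclear lists the most abundant members, with Polrmt, Tfb2m and Tfam added as central factors after their values were seen. Alternatives were RLE scaling, library totals, other filters on low counts, DESeq2 1.42.0, limma-voom 3.58.1, a replicate block, other denominators of CPM and leaving out libraries. The members and lists were chosen with earlier results of these data known.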

Additional observations from a re-analysis of the deposited data

How the results depend on the processing

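Of 121 recomputed class levels, ratios and counts of calls, 117 were scored as the same. For levels and ratios only the direction was compared, since their permutation p cannot go below 0.1. The counts of calls were mostly 0. Of 210 fold changes of single rows, 206 kept their direction and their side of the threshold. Set against the controls alone, dTAG replicate 1 gave the opposite sign for the mt-Rnr2 to mt-Rnr1 log2 ratio (0.0114), and for the log2 fold changes of ND4L (0.0185) and ND6 (0.0112). Without dTAG replicate 1, ND3 and ND6 passed the threshold. Leaving out each library in turn gave 0 to 2 calls among messenger RNA rows, 0 to 24 among the 50 factors and 0 to 61 among ribosomal protein genes, with the highest counts when dTAG replicate 1 was left out, and 0 calls of the ribosomal RNAs each time. The total level differed by -2.97 to -0.27 on the log2 scale, ribosomal RNA by -2.95 to -0.25 and messenger RNA by -3.02 to -0.33. The messenger RNA part differed by -1.20 to -0.40 percentage points, the ND6 ratio by 0.05 to 1.60 and the ratio to ribosomal protein genes by -2.65 to -0.14. Scaled by TMM library sizes the total differed by -2.76, and without mitochondrial rows and Rn45s in the denominator by -2.14, both with p = 0.1, the smallest the exact permutation test gives. The causes of these shifts were not tested.

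Deviations from the group mean correlated at 0.0434, -0.0285 and 0.0394 between libraries of the same replicate number, and the numbers were not taken as pairs. The wide differences among dTAG libraries could hide a shared effect, so these values cannot show that the libraries were unpaired. With a replicate block edgeR called 0 mitochondrial rows, 0 factors and 0 ribosomal protein genes, and the total difference of -1.98 had p = 0.25, the smallest an exact sign-flip test of 3 pairs gives. The planned comparison of transfer RNA levels was not run, because no named row matched a mitochondrial transfer RNA gene. Depth limits dTAG replicate 3 most, where 3 rows held 5 to 18 counts.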
